A study of Drosophila melanogaster with 12 samples.

Results

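The proteasome is the protease of the cytoplasm and nucleus that degrades proteins marked with ubiquitin. Its barrel, the 20S core particle, is built of outer rings of alpha subunits and inner rings of beta subunits, and only the beta subunits 1, 2 and 5 carry proteolytic sites. The 19S regulatory particle caps the barrel. Its base holds a ring of Rpt ATPases, which unfold the substrate and open the barrel, and Rpn subunits that receive ubiquitinated proteins. Its lid removes the ubiquitin before the substrate enters. *Drosophila melanogaster* carries additional copies of several subunit genes, named with a T or an R after the number, several of which are known from the testis.

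Proteasome subunit genes were chosen by symbol alone, as Prosalpha, Prosbeta, Rpn or Rpt followed by a digit, and the rule itself uses no measured value. The rule found 48 of the 17737 genes counted in RNA immunoprecipitation sequencing (RIP-seq), namely 32 canonical subunits and 16 paralogs. The canonical subunits comprised 7 alpha and 7 beta subunits, 6 ATPases and 4 other subunits of the base, and 8 lid subunits. All 48 had a line in the RIP-seq table, and 30 were among the 6555 genes listed by RNA-seq. Of the 48, 34 had a count in any RIP-seq library and entered the test, of which 31 were canonical. These 31 had 10 counts or more in each library.

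The study asked which mRNAs depend on or associate with Bam, a germline protein needed for stem cell daughters to differentiate. For RIP-seq, GFP-trap beads were used on lysates of whole ovaries from flies with the Bam-fTRG-GFP transgene, in which Bam is tagged with GFP (3 libraries), and from Bam-Gal4 ::UASp-GFP flies, in which untagged GFP is driven by the *bam* promoter (3 libraries). For RNA-seq, living germ cells that carried *vas*-GFP were sorted from ovaries of flies homozygous for the deletion allele bam_delta86 (*bam*-/-, 3 samples) and of flies with *vas*-GFP alone (3 samples). All 4 groups thus carried a GFP transgene, and the age of the flies was not given in the sources used here. Ovaries of several flies were pooled for each lysate, and Bam itself is made only in few cells at the tip of each ovariole, whereas the lysates held every cell of the ovary. The labels do not say whether replicates came from separate flies, so that p-values measure the spread between these samples, which may be technical.

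Counts on genes amounted to 7720890 to 12704088 per Bam-GFP library and 7697440 to 9342593 per GFP control library. Between 80.4% and 90.2% of all counted reads of a library stood on lines without a gene, mainly reads aligned to several places. Markers of the germline were present, with *vas* at 345 ± 75.7 CPM in Bam-GFP pull-downs and 337 ± 49.7 CPM in control pull-downs (SD, n = 3 each). Here CPM are counts scaled to a common library total with TMM factors, which are meant to adjust for differences in composition between libraries. Markers of the follicle epithelium, 7 in all, summed to 2292 to 3085 CPM in Bam-GFP and 1451 to 1704 CPM in control pull-downs, and 5 detected germline markers summed to 4507 to 7833 CPM in Bam-GFP and 3031 to 4445 CPM in control pull-downs. The 6 muscle sheath markers summed to 36.0 to 114 CPM in Bam-GFP and 86.8 to 140 CPM in control pull-downs. Those 4 of hemocytes and fat body summed to 3.53 to 6.16 CPM in Bam-GFP and 3.17 to 7.06 CPM in control pull-downs. Of 8 testis markers, 6 were at 0 in every library.

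In sorted germ cells the listed canonical subunit mRNAs had high mean levels. The deposited table gives 1 mean normalized count per gene over all 6 RNA-seq libraries, which is the authors' mean and carries no error here. The listed genes are those that the study selected as different between *bam*-/- and *vas*-GFP, so that each mean pools groups selected as unlike in that gene, and ranks are among selected genes only. Of the 32 canonical subunits, 27 were listed, with authors' means between 7386 for *Rpn12*, a lid subunit, and 19811 for *Rpn2*, the scaffold of the base. Their median of 12219 stood above 92.5% of all listed genes, against a median of 1357 over the whole table, and even the lowest of the 27 stood above 86.2%. Not listed were *Prosalpha1*, *Rpt4*, *Rpn1*, *Rpn6* and *Rpn9*. Since the authors selected the listed genes, nothing follows from the absence of these 5. Markers of the follicle epithelium were listed too, with authors' means from 189 for *slbo* to 15231 for *tj* and 41190 for *Yp2*. The listed germline markers had authors' means from 548 for *osk* to 8629 for *bru1*. How far cells other than germ cells add to the subunit means was not tested.

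Levels of different genes were compared per kb of gene span, because longer mRNAs give more reads. The span includes introns, which makes a gene with long introns look low. On this scale the 13 listed subunits of the 20S core spanned only a 1.39-fold range, with authors' means per kb from 9033 for *Prosbeta2*, which carries the trypsin-like site, to 12511 for *Prosalpha3*. The alpha ring had a median of 11340 and the beta ring a median of 10959 per kb. The 14 listed 19S subunits lay lower and wider, with a median of 6963 per kb and a range from 2715 for *Rpn8*, a lid subunit with a span of 4500 bp, to 9552 for the ATPase *Rpt1*. Among the 15 listed canonical genes that overlap no other annotated gene, 20S subunits (n = 7) had authors' means of 9761 to 12511 per kb and 19S subunits (n = 8) of 5217 to 8926 per kb, so that both ranges did not meet. No test was made of this order, as the means have no replicates. Undivided by span, the same 20S genes had a median of 12605 (9947 to 16170). The 19S genes then had a median of 12687 (7386 to 19811), so that the ranges overlapped and the order was not seen.

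**Figure D1:**
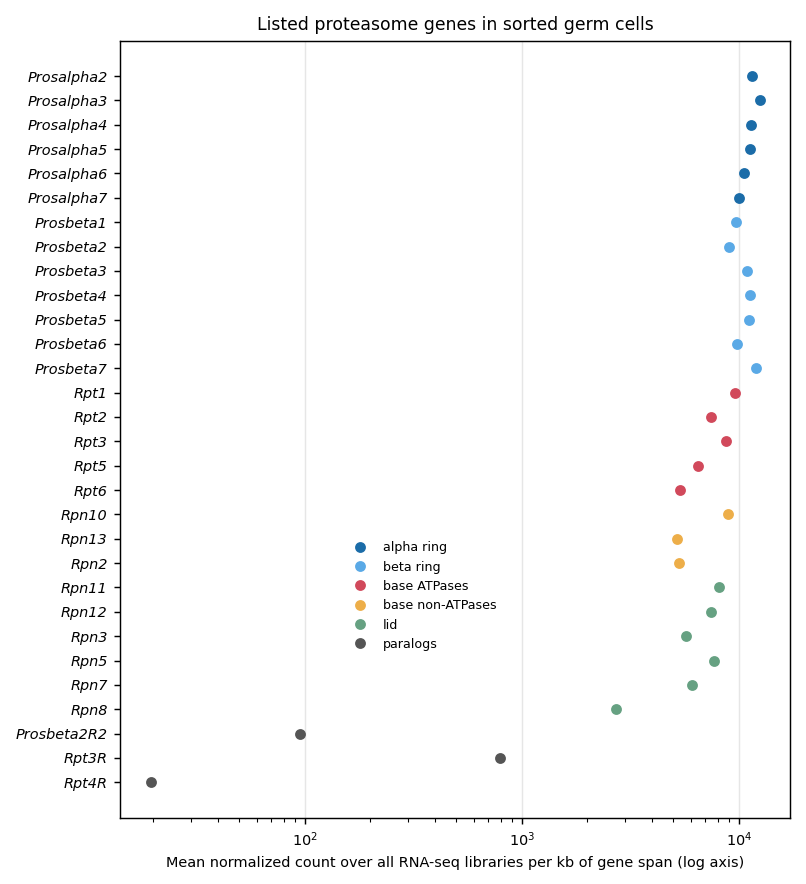
Mean normalized count over all RNA-seq libraries per kb of gene span (log axis) for the 30 listed proteasome genes, 1 point per gene, coloured by role. The 20S subunits lie together between 9033 and 12511, the 19S subunits between 2715 and 9552, and the 3 paralogs at 797 or below.

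In the Bam-GFP pull-downs, 2 subunit mRNAs were higher than in the GFP control, *Rpn2* and *Rpn1*, and no subunit was lower by the same test. Both encode large scaffold proteins of the 19S base. The test was edgeR's quasi-likelihood test over all 10971 genes with a count, with Benjamini-Hochberg adjustment and a threshold of 0.05. Of all genes tested, 1.72% were called higher and 0.474% lower, against 2 of 31 canonical subunits called higher (6.45%) and 0 called lower. Over all genes, 189 were called higher and 52 lower, a split that was 108 to 87 when libraries were scaled by their size only and 137 to 16 when reads aligned to several places entered the totals. At an unadjusted p under 0.05, 3 canonical subunits were higher (9.68%), against 5.54% of all genes, and 1 was lower (3.23%), against 4.03% of all genes. These shares rest on 3 genes and 1 gene. The fitted log2 fold change of Bam-GFP over GFP control was positive for 13 of 31 canonical subunits (41.9%) and for 47.8% of all genes, and its median was −0.03 over the canonical subunits and −0.05 over all genes tested.

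**Figure D2:**
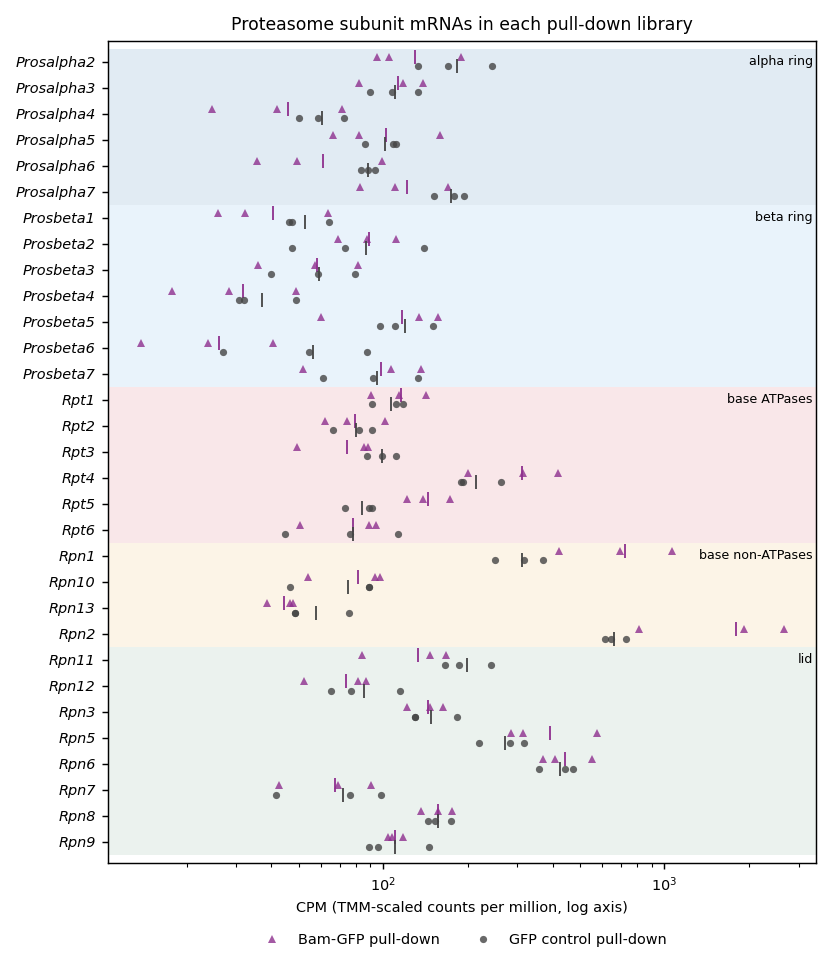
CPM of the 31 counted canonical subunits in each RIP-seq library (log axis), grouped by role. Triangles are the 3 Bam-GFP libraries, circles the 3 GFP control libraries and vertical ticks the group means. *Rpn2* and *Rpn1* lie to the right of their controls, and for most other subunits the groups overlap.

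*Rpn2* (chromosome 3R, 29153524 to 29157255, Release 6, no overlapping gene) had 2667, 814 and 1914 CPM in the Bam-GFP libraries 1, 2 and 3, against 644, 614 and 729 CPM in the control libraries. Every Bam-GFP library was above every control library, but the second Bam-GFP library only narrowly. The log2 fold change was 1.29 (SE 0.33, edgeR adjusted p = 0.00672). *Rpn1* (chromosome 3L, 19915051 to 19918160, no overlapping gene), which in yeast docks ubiquitin receptors that shuttle substrates, had 696, 423 and 1060 CPM in Bam-GFP libraries and 370, 317 and 251 CPM in control libraries. Again the groups did not overlap and the second Bam-GFP library was the lowest of its group. The log2 fold change was 1.13 (SE 0.32, edgeR adjusted p = 0.0280). For all genes, every Bam-GFP library was above every control library in 6.4%, and among the tested proteasome genes this held for *Rpn2*, *Rpn1* and *Rpt5*.

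Neither call held in every alternative. Leaving out the libraries of number 1, 2 or 3 from both groups gave 0 calls each time, with adjusted p of 0.0638 to 0.311 for *Rpn2* and of 0.0633 to 0.592 for *Rpn1*, while the log2 fold changes ran from 0.90 to 1.72 for *Rpn2* and from 0.66 to 1.497 for *Rpn1*. Restricting the test to genes with 10 or more counts in each library also gave 0 calls, with adjusted p of 0.0598 for *Rpn2* and 0.106 for *Rpn1* at log2 fold changes of 1.29 and 1.13. The pull-downs had no matching input library here, so that a larger amount of an mRNA in the lysate, more cells that make it and more of it on the beads cannot be told apart. Summed follicle and germline marker levels were also higher in Bam-GFP, and among these *osk* (log2 fold change 1.26), *tj* (1.16), *Yp2* (1.11) and *Yp3* (1.11) passed the same test. The other markers of both lists did not pass. These were *vas* (0.02), *aub* (0.03), *otu* (−0.25), *bru1* (0.68), *Yp1* (0.06), *slbo* (−0.04), *Fas3* (−0.51) and *mirr* (1.18). The median log2 fold change was 0.03 over the germline and 1.11 over the follicle list. The part of these markers in the result was not tested.

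*Rpn1* and *Rpn2* together carried the difference between the groups in the summed level of the subunit mRNAs. The 31 canonical subunits summed to 6819, 4903 and 6291 CPM in Bam-GFP libraries (6004 ± 990, SD, n = 3) and to 4277, 4905 and 4196 CPM in control libraries (4459 ± 388, SD, n = 3). The second Bam-GFP library fell among the controls. Without *Rpn1* and *Rpn2* the other 29 subunits summed to 3479 ± 176 CPM in Bam-GFP and 3485 ± 424 CPM in control pull-downs (SD, n = 3 each), a difference far inside the spread. *Rpn2* alone took 39.1%, 16.6% and 30.4% of the canonical subunit counts in Bam-GFP libraries, against 15.1%, 12.5% and 17.4% in control libraries. *Rpn2* had the highest CPM of the counted subunits in all 6 libraries, where CPM are not scaled to gene span.

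**Figure D3:**
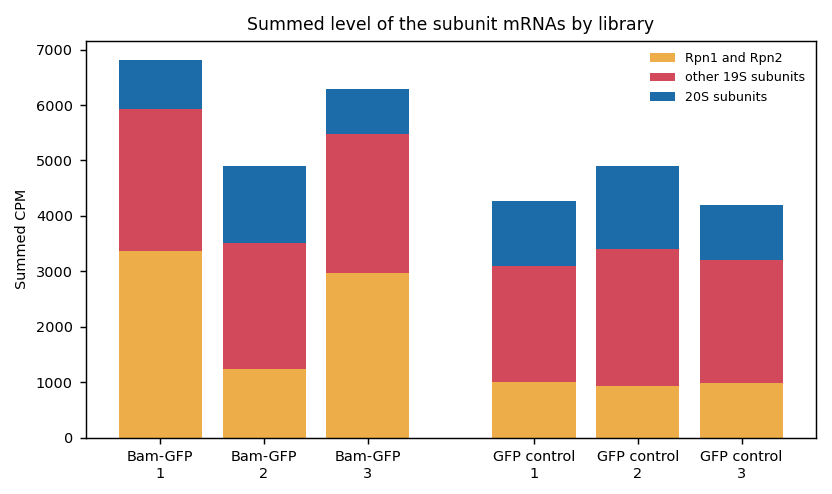
Summed CPM of the counted canonical subunit mRNAs in each of the 6 RIP-seq libraries, stacked as *Rpn1* and *Rpn2*, the 16 other 19S subunits and the 13 20S subunits. *Rpn1* and *Rpn2* add 3363, 1237 and 2974 CPM in Bam-GFP libraries and 1013, 931 and 979 CPM in control libraries, whereas the other 19S subunits stay between 2088 and 2566 CPM in all 6.

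None of the 6 counted alpha subunits passed the test in either direction. These subunits form the outer ring and, in yeast, the gate of the barrel. Their log2 fold changes ran from −0.67 to 0.02 with a median of −0.51, and 5 of 6 were negative. The lowest was that of *Prosalpha6*, which had 35.6, 98.9 and 49.2 CPM in Bam-GFP libraries and 93.4, 83.5 and 88.4 CPM in control libraries. The second Bam-GFP library was the highest of all 6 here, so that the groups overlapped, with a log2 fold change of −0.67 (SE 0.40, edgeR adjusted p = 0.694). *Prosalpha7* and *Prosalpha2* had log2 fold changes of −0.59 and −0.52.

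The seventh alpha subunit, *Prosalpha1* (chromosome 2R, 7827303 to 7828678), had 0 counts in every library, as had its paralog *Prosalpha1R*, which lies 1734 bp away on the same chromosome. A count of 0 allows up to 0.252 to 0.371 CPM at these depths, set at 3 counts per library and covering counting error only. Reads that align to several places are not assigned to a gene in these counts, and numbered 51532206 to 85497154 per library. The annotated span of *Prosalpha1* overlaps that of *phr*, and *Prosalpha1R* overlaps CG18853. Whether reads of this gene pair aligned to several places or were lost to these overlaps was not tested.

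The 7 beta subunits had log2 fold changes from −1.09 to 0.16 with a median of −0.11, and none passed the adjusted test. *Prosbeta6* (chromosome 3L, 16609400 to 16610418, no overlapping gene), a beta subunit without a proteolytic site, was the lowest subunit of all. It had 13.7, 40.5 and 23.7 CPM in Bam-GFP libraries and 54.2, 87.7 and 26.9 CPM in control libraries. The groups overlapped, since the second Bam-GFP library exceeded the third control library. Its log2 fold change was −1.09 (SE 0.49), and it was the only subunit lower at an unadjusted p under 0.05 (edgeR, unadjusted p = 0.0251, adjusted p = 0.361). The unadjusted p was 0.0829 when reads aligned to several places entered the totals, 0.234 without the libraries of number 1 and 0.146 without those of number 2 (edgeR). With library size only, 5 subunits were lower at this threshold, but the median log2 fold change of all genes also moved, from −0.05 to −0.26. The share of all genes at that setting is not given here, so that nothing is read from the 5.

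None of the proteolytic subunits passed either threshold. *Prosbeta1*, with the caspase-like site, had 25.8, 63.7 and 32.3 CPM in Bam-GFP libraries and 64.3, 46.3 and 47.2 CPM in control libraries, with a log2 fold change of −0.47 (SE 0.46). *Prosbeta2* had 111, 87.3 and 69.1 CPM in Bam-GFP libraries and 72.9, 139 and 47.5 CPM in control libraries, with a log2 fold change of 0.16 (SE 0.38). *Prosbeta5*, with the chymotrypsin-like site, had 60.2, 157 and 133 CPM in Bam-GFP libraries and 110, 150.1 and 97.1 CPM in control libraries, with a log2 fold change of −0.11 (SE 0.35). In each the lower and higher libraries were found on both sides, and the direction for *Prosbeta2* and *Prosbeta5* turned under other settings.

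Single 20S subunits differed more among the Bam-GFP libraries than among the controls, by the median SD given below, but the sums did not all do so. The 13 counted 20S subunits summed to 889, 1390 and 819 CPM in Bam-GFP libraries and to 1175, 1504 and 991 CPM in control libraries. The SD of the alpha ring sum was 202 CPM in Bam-GFP and 91.9 CPM in control pull-downs. That of the beta ring sum was 110 CPM in Bam-GFP and 168 CPM in control pull-downs. They made up 13.04%, 28.4% and 13.02% of the canonical subunit counts in Bam-GFP libraries and 27.5%, 30.7% and 23.6% in control libraries, so that the second Bam-GFP library resembled the controls. For 10 of the 13 subunits the second library was the highest of the Bam-GFP group, and it was the lowest for 0. In the control group, too, the second library was the highest for 9 of the 13, and it was the lowest for 2. The median SD of log2 CPM across replicates, with 0.5 CPM added, was 0.67 in Bam-GFP and 0.32 in control pull-downs for the 20S subunits, 0.43 in Bam-GFP and 0.28 in control pull-downs for the 19S subunits, and 0.47 in Bam-GFP and 0.38 in control pull-downs over the 6335 genes with 10 or more counts in each library.

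**Figure D4:**
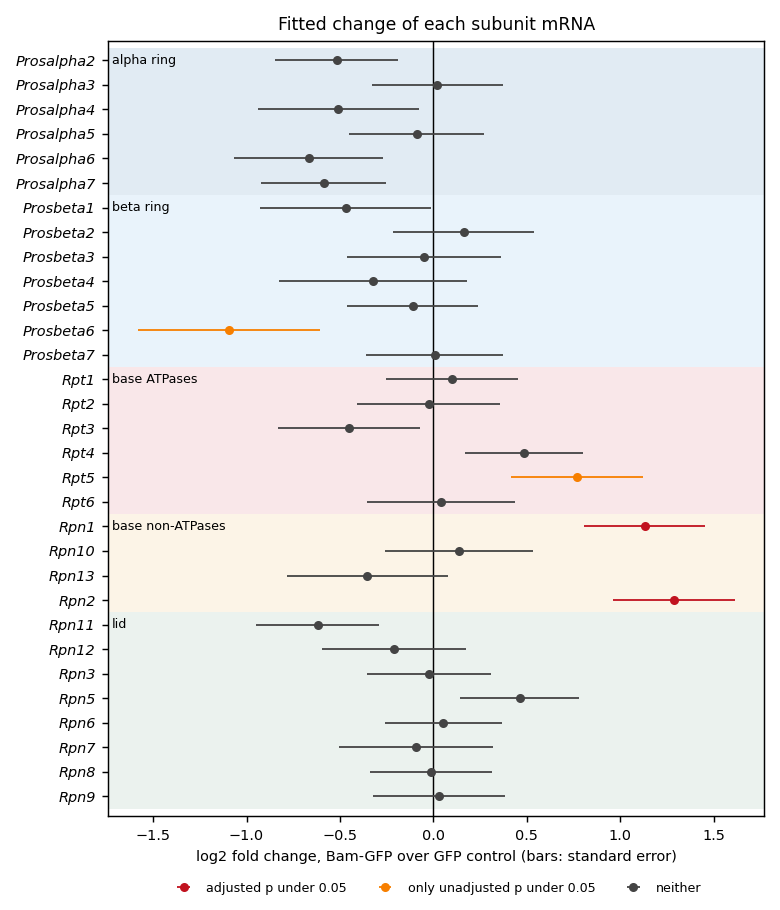
Log2 fold change of Bam-GFP over GFP control for the 31 counted canonical subunits, 1 row per gene, with bars of 1 standard error. Of the 13 20S subunits 10 are negative, of the 18 19S subunits 8, and only *Rpn1* and *Rpn2* pass an adjusted p of 0.05.

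The 6 ATPases of the base had log2 fold changes from −0.45 to 0.77 with a median of 0.07. *Rpt5* (chromosome 3R, 23752876 to 23754623), which overlaps the annotated span of *Hrd3*, was the highest of them. It had 173, 122 and 138 CPM in Bam-GFP libraries and 88.8, 91.2 and 72.8 CPM in control libraries. All Bam-GFP libraries lay above all control libraries, with a log2 fold change of 0.77 (SE 0.35), but after adjustment it did not pass (edgeR, unadjusted p = 0.0285, adjusted p = 0.385). The unadjusted p was 0.144 with library size only, 0.119 without the libraries of number 1 and 0.0751 without those of number 3 (edgeR). Reads were counted without strand, so that reads from the overlap of *Rpt5* and *Hrd3* were not assigned by strand. How such reads enter the count of *Rpt5* was not tested. *Rpt4*, with the highest level of the ATPases, averaged 311 CPM in Bam-GFP and 214 CPM in control pull-downs with overlapping groups, and the 4 remaining ATPases averaged 74.4 to 115 CPM in Bam-GFP pull-downs.

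Of the base, *Rpn10* and *Rpn13* passed neither threshold. *Rpn10*, a ubiquitin receptor, had 54.1, 97.1 and 93.3 CPM in Bam-GFP libraries and 89.1, 46.4 and 88.8 CPM in control libraries, with a log2 fold change of 0.14 (SE 0.40). *Rpn13*, the receptor that also recruits the deubiquitinase Uch-L5, had 38.4, 46.5 and 47.6 CPM in Bam-GFP libraries and 48.5, 75.7 and 48.4 CPM in control libraries. It was the only member of which every Bam-GFP library was below every control library, as were 7.24% of all genes, yet the gap between the groups was under 1 CPM. The log2 fold change was −0.35 (SE 0.43, edgeR adjusted p = 0.895). Thus within the base, *Rpn1* and *Rpn2* stood at 1.13 and 1.29, and *Rpn10* and *Rpn13* at 0.14 and −0.35.

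The 8 lid subunits had log2 fold changes from −0.62 to 0.46 with a median of −0.02, and none passed either threshold. *Rpn11*, the deubiquitinase of the lid, was the lowest. It had 168, 147 and 84.0 CPM in Bam-GFP libraries and 166, 242 and 186 CPM in control libraries. The first Bam-GFP library was above the first control library, with a log2 fold change of −0.62 (SE 0.33, edgeR adjusted p = 0.569). *Rpn5* was the highest of the lid, with 575, 285 and 314 CPM in Bam-GFP libraries and 218, 282 and 316 CPM in control libraries. Its higher mean came from the first Bam-GFP library alone, and the other 2 were within the range of the controls. *Rpn6*, *Rpn3*, *Rpn7*, *Rpn8*, *Rpn9* and *Rpn12* had mean levels of 67.3 to 444 CPM in Bam-GFP pull-downs and overlapped between the groups.

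Per kb of gene span, levels in the pull-downs did not follow the levels in the sorted cells closely. In Bam-GFP pull-downs the mean CPM per kb ranged from 23.8 for *Rpn13* to 482 for *Rpn2* within the 19S particle, and from 25.5 for *Prosbeta6* to 105 for *Prosalpha2* within the 20S core. In control pull-downs it ranged from 30.9 for *Rpn13* to 177 for *Rpn2* and from 39.0 for *Prosbeta4* to 148 for *Prosalpha2*. Across the 27 subunits with both measures, the authors' mean per kb and the CPM per kb had a Pearson correlation of 0.05 (Spearman 0.17) for Bam-GFP and of 0.29 (Spearman 0.27) for control pull-downs. Within the 20S core (n = 13) it was 0.33 (Spearman 0.36) for Bam-GFP and 0.17 (Spearman 0.28) for control pull-downs, and within the 19S particle (n = 14) 0.17 (Spearman 0.29) for Bam-GFP and 0.33 (Spearman 0.25) for control pull-downs. These are descriptions across genes, which are not independent replicates, and both axes share the gene span.

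The fold changes of the subunits went with the span of their genes. Across the 31 canonical subunits, the log2 fold change and the log10 of the span had a Pearson correlation of 0.62 (Spearman 0.62), and without *Rpn1* and *Rpn2* of 0.42 (Spearman 0.55). Over 6259 such genes of known span the correlation was 0.24 (Spearman 0.23). Genes under 1.5 kb had a median of −0.17 over 1230 genes and of −0.27 over 16 subunits. Between 1.5 and 3 kb the median was −0.18 over 1863 genes and 0.05 over 12 subunits, and between 3 and 6 kb it was −0.03 over 1420 genes, where only *Rpn1*, *Rpn2* and *Rpn8* fell. *Rpn8* has the longest span of all subunits but a log2 fold change of −0.01. The genes share libraries, and the part of the span in the results was not tested.

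**Figure D5:**
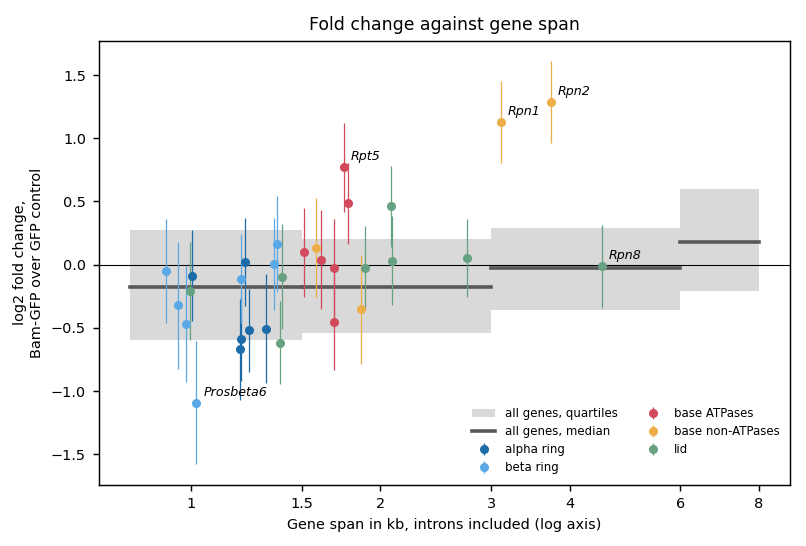
Log2 fold change of Bam-GFP over GFP control against the gene span in kb (log axis, introns included) for the 31 counted canonical subunits, coloured by role, with bars of 1 standard error. Grey bars give the median and the shaded boxes the quartiles of all genes in the same span class. *Rpn1* and *Rpn2* lie above the box of their class and *Rpn8* at its median.

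Few paralogs were detected. In RIP-seq 13 of the 16 had 0 counts in every library. *Prosbeta2R2* had 8 counts in the third Bam-GFP library and 0 in the other 5. *Rpt3R*, which overlaps the gene *Alg12*, had 13 counts in the second control library and 0 in the other 5. *Rpn13R*, which overlaps the genes *rg* and CG15465, had 7, 0 and 0 counts in Bam-GFP libraries and 4, 0 and 4 counts in control libraries. No fold is given for these. In sorted germ cells 3 paralogs were listed, *Rpt3R* with an authors' mean of 1416, above 51.0% of listed genes, *Prosbeta2R2* with 170 and *Rpt4R* with 30.8. Per kb, *Rpt3R* was at 797, against 8741 for its canonical counterpart *Rpt3*, and *Prosbeta2R2* at 95.5, against 9033 for *Prosbeta2*.

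A list of 17 other genes of the pathway covered ubiquitin, its activating enzyme, shuttle receptors, deubiquitinases, assembly factors and regulators. Of the 16 that were tested, 0 passed the adjusted edgeR test in either direction, and at an unadjusted p under 0.05, 1 was higher in Bam-GFP, as were 5.54% of all genes, and 0 were lower, as were 4.03% of all genes. The higher gene was *cnc*, which encodes a transcription factor known in flies to induce proteasome genes. It had 676, 400.4 and 531 CPM in Bam-GFP libraries and 337, 288 and 385 CPM in control libraries, with a log2 fold change of 0.65 (SE 0.31, edgeR unadjusted p = 0.0388, adjusted p = 0.459). The groups did not overlap, as in 6.4% of all genes, but their nearest libraries were 400.4 CPM in Bam-GFP and 385 CPM in the control. The same held for *Uba1*, the ubiquitin-activating enzyme, whose nearest libraries were 1267 CPM in Bam-GFP and 1221 CPM in the control, with a log2 fold change of 0.55 (SE 0.32, edgeR adjusted p = 0.655). *Uba1* is named for this after its values were seen. The median log2 fold change of the 16 genes was −0.12, and 3 of them were positive.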

How the data were processed

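RNA was extracted from sorted germ cells (RNA-seq) and after GFP-trap pull-down from ovary lysates (RIP-seq). The authors aligned reads with STAR 2.4.0 and counted them per gene with HTSeq 0.11.0, without strand. The deposited RNA-seq table gives the mean normalized count, a signal scaled with DESeq2 1.14.0 and averaged by the authors over all libraries. Its columns of fold change, standard error, statistic and p-values are the authors' comparison and were not used, so that *bam*-/- and *vas*-GFP were not compared here and the RNA-seq depth per library is unknown. The deposited RIP-seq table gives raw counts per gene, beside the fold change and p-value of the authors' paired test, which were not used either. Its columns carry the short names Bam1 to WT3, which are also titles of RNA-seq samples. They were taken as RIP-seq because the table holds the results of the test that the study used for RIP-seq only, and each was assigned to its group alone.

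Another 5 lines that name no gene, with 80.4% to 90.2% of the counts of a library, were left out. Counts of 10971 genes were fitted with edgeR 4.0.16 (quasi-likelihood, robust), TMM factors of 0.807 to 1.13 and the column number as a block, as the study used a paired test. Standard errors were derived from the F statistic. Gene spans and positions come from RefSeq (Release 6 assembly). Symbols come from a separate list of gene names, which gave one to 17599 of the RIP-seq identifiers. Of the canonical subunits, 15 overlap another annotated gene and are less certain. Reads carried no molecular identifiers, so that limits cover counting error only. The rule for the members uses symbols only, but the gene family and the other gene lists were picked with earlier results of these data known.

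Values per library are given for subunits with an unadjusted p under 0.05, the 3 highest and 3 lowest fold changes, the catalytic subunits, ubiquitin receptors, the deubiquitinase and paralogs with a count. *Rpn5* was added after its values were seen. Of the markers, *nos*, and of the pathway list, *TER94*, were not matched. Alternatives were RLE factors, library size only, totals with reads aligned to several places, DESeq2 1.42.0, 2 filters on counts, no block and each number left out. Analyses ran in R 4.3.3 and Python 3.11.15, with figures drawn in matplotlib 3.10.9.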

Additional observations from a re-analysis of the deposited data

How the results depend on the processing

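The count of subunits higher in Bam-GFP, 2 at an adjusted p under 0.05, was 1 with library size only, 1 with wider library totals (including reads aligned to several places), 0 with edgeR's filter on low counts, 0 with at least 10 counts in every library and 0 to 0 with the libraries of one number left out. It was 2 with RLE factors and DESeq2, and 2 without the replicate block. At an unadjusted p, the 3 higher subunits became 1 to 3 with one number left out, and the 1 lower subunit became 5 with library size only and 0 with the wider totals. Shares of all genes at an unadjusted p are given for the main fit only, so that these counts have no background beside them. The 1 higher pathway gene became 0 with library size only, 0 without the block and 0 to 1 with one number left out. The median log2 fold change with library size only was −0.25 for the canonical and −0.19 for the 19S subunits, where the median of all genes moved to −0.26, against −0.05. The direction reversed for *Prosbeta2* (−0.066 with library size only, −0.067 to 0.57 with one number left out), *Prosbeta5* (0.0038 with the wider totals, −0.40 to 0.26 with one number left out) and *Rpn10* (−0.085 with library size only, −0.32 to 0.57 with one number left out). *Rpn2* was called in 5 of 10 alternatives (adjusted p 0.00721 to 0.311, edgeR or DESeq2) and *Rpn1* in 3 of 10 (adjusted p 0.0282 to 0.592, edgeR or DESeq2). The cause was not tested. Filters change how many genes are tested, but the unadjusted p rose as well. With at least 10 counts in every library it was 0.00115 for *Rpn2*, against 7.6e-05 in the main fit, and 0.00348 for *Rpn1*, against 0.000466 (edgeR). Over all genes, calls higher and lower in Bam-GFP were 189 and 52, against 108 and 87 with library size only, 304 and 104 with DESeq2, 115 and 20 with edgeR's filter and 100 and 13 with at least 10 counts, 137 and 16 with the wider totals, and 55 to 121 and 18 to 44 with one number left out. Deviations of same-numbered libraries from their group means correlated by −0.15, 0.23 and −0.05 for numbers 1, 2 and 3. This gives no consistent sign of pairing, although the block stayed in the fit behind every reported fold change. Levels per coding length and per longest transcript were not run. For the 13 paralogs without a count, shallow depth, the overlap of some with other genes and reads left unassigned because they align to several places were not told apart.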
